A study of Mus musculus with 4 samples.

Results

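Double mutant chondrocytes were compared with wild type chondrocytes, which gives the total difference between the most severely affected genotype of the study and its control. The comparison rests on 2 of the 4 arrays, 1 for each genotype, and covers 18193 genes, each read by its brightest probe set. Wild type mice (*Xbp1* WT) had an intact *Xbp1* and no *Matn3* mutation, and double mutant mice (*Xbp1* KO *Matn3* MUT) carried the V194D change in *Matn3* together with a deletion of *Xbp1* exon 2, all on a C57BL6/J background at postnatal day 5. The XBP1 null genotype (*Xbp1* KO) and the *Matn3* mutant genotype (*Xbp1* WT *Matn3* MUT), each with 1 of the 2 changes, are given for orientation. The deletion was made by a Cre recombinase under the control of *Col2a1* regulatory sequences, so it was limited to cells in which that promoter had been active. Chondrocytes were released from rib cartilage with collagenase, and each array was hybridised with RNA pooled from 3 extractions. With 1 array per genotype there was no replicate check, the 2 arrays alone allowed no test, and a difference between them cannot be told apart from a difference between the pools.

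Matrilin-3 is a bridging protein of the cartilage matrix that chondrocytes secrete. The V194D protein misfolds and is retained in the endoplasmic reticulum (ER), where misfolded proteins are sensed by IRE1, ATF6 and PERK, the sensors of the unfolded protein response (UPR). IRE1 splices the *Xbp1* message into the form that encodes an active transcription factor, ATF6 is itself cleaved into a transcription factor, and PERK lowers translation while favouring that of ATF4. XBP1 and ATF6 act mainly on genes of folding and ER-associated degradation, ATF4 on genes of amino acid supply. A separate heat shock response, driven by HSF1, serves the cytosol.

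*Xbp1*, the deleted gene, gave signals of 8183 in wild type and 9548 in double mutant chondrocytes, with 7877 in the XBP1 null and 11403 in the *Matn3* mutant. The signal was thus not lower in the double mutant than in wild type, and the position of its probe sets relative to exon 2 was not analysed here, so the array cannot check the deletion. Lists of 4 signals are given below in the order wild type, double mutant, XBP1 null and *Matn3* mutant. *Matn3* read 10185, 10572, 9945 and 10462, 4 nearly equal values. The labelled cell type was borne out by chondrocyte markers, with *Col2a1*, the major collagen of cartilage, at 10187 in wild type and 13571 in double mutant, and *Acan*, its major proteoglycan, at 7475 and 10139. The array medians were 43.8 on both arrays compared. Signals under 1 made up between 8.36% and 10.9% of each of the 4 arrays, and were set to 1 before log2 was taken. The Y-linked gene *Eif2s3y* read 484, 855, 665 and 0.0320, and *Xist*, which is transcribed from the inactive X chromosome, read 7393, 4101, 5262 and 9718. The wild type and double mutant pools both held male and female signals, with less *Xist* in the double mutant, whereas the *Matn3* mutant pool had only the female one. The part of sex in the differences below was not tested. In RNA of a cell population, fewer cells of a type and less RNA per cell cannot be told apart.

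Over all genes, 4392 were more than 1.5-fold higher in the double mutant than in wild type (24.1%) and 2209 more than 1.5-fold lower (12.1%), with a median difference of 0.13 on the log2 scale. Most of the large differences lay among dim genes. Among the 9097 genes whose mean over the 4 arrays was at or above the median, a signal of about 112, here called bright genes, 1246 were higher (13.7%) and 474 lower (5.21%). Among the 4549 genes of the top 25%, from a signal of about 596, here called very bright genes, 583 were higher (12.8%) and 130 lower (2.86%). The wild type array was the lowest of the 4 for 1129 of the 1246 higher genes (90.6%) and the highest of the 4 for 392 of the 474 lower genes (82.7%), against 36.5% and 24.997% of all bright genes. These shares are raised by the choice of the genes, which used the same wild type array. Most bright genes past 1.5-fold thus lay on the same side of wild type in both single mutants too, by any margin. Those comparisons share the wild type array.

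**Figure D1:**
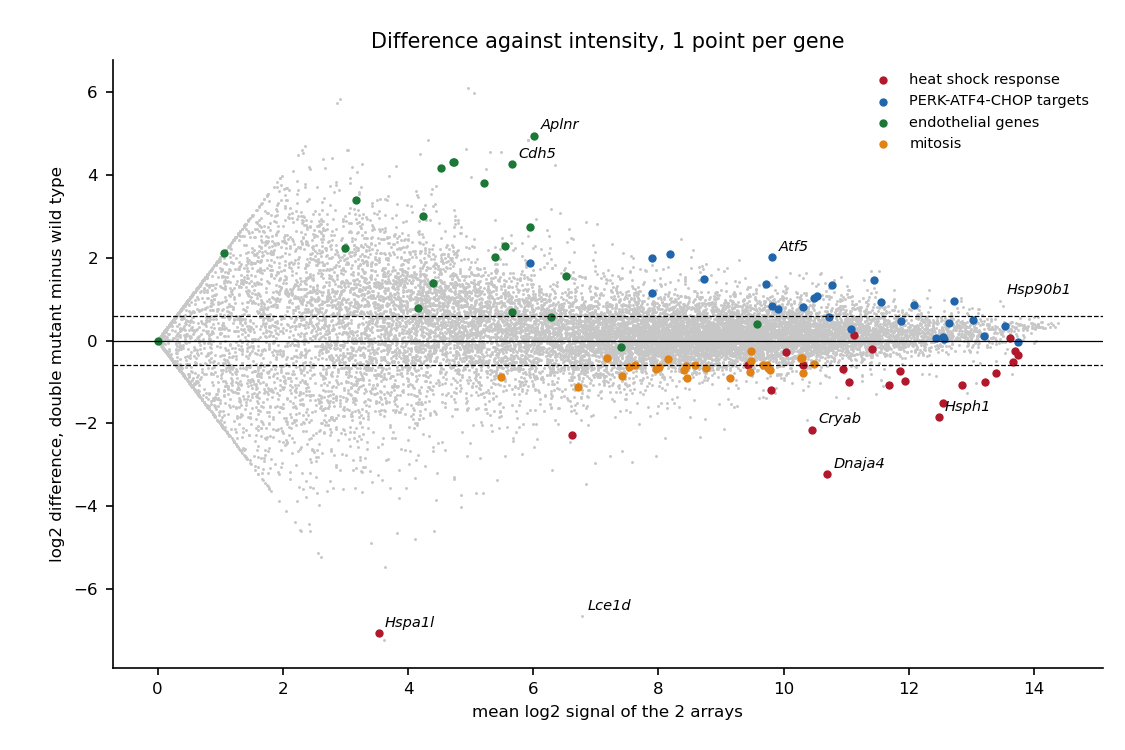
Difference between double mutant and wild type on the log2 scale against the mean log2 signal of the 2 arrays, with 1 point per gene and dashed lines at 1.5-fold. Grey points are all 18193 genes and coloured points are members of 4 gene lists. The spread is widest at low signals, and the bright heat shock genes *Dnaja4*, *Cryab* and *Hsph1* lie below the cloud.

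Different probe sets of a gene gave a measure of consistency within the arrays. Of 3708 genes with at least 2 probe sets at or above that signal, 536 were higher by the brightest probe set, and the second brightest had the same sign in 427 (79.7%) and passed 1.5-fold the same way in 218. Of 152 that were lower, the second had the same sign in 115 and passed in 61. The second passed in the opposite direction in 32 and 10. A single gene that just passes 1.5-fold is therefore a weak observation here.

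The 4 arrays together allowed 1 residual degree of freedom under a model that adds an effect of the *Matn3* mutation and an effect of the *Xbp1* deletion. Fitted with limma to all genes, that model called no gene at an adjusted p under 0.05 (0.00%), with a smallest adjusted p of 0.777. Of the 18193 genes, 1040 had an unadjusted p under 0.05, 647 higher and 393 lower. A share of 0.05 of genes is expected to pass that limit where nothing differs, so this count is no evidence by itself. The estimate of the spread was poorly determined in that fit (prior degrees of freedom 1.24), so the lack of calls does not show a lack of differences. Restricted to the bright genes, the same model gave 28.2 prior degrees of freedom and called 11 genes higher (0.121%) and 15 lower (0.165%). The p-values from this restricted fit rest on additive effects and on a spread borrowed from other genes, not on replicates. Among the genes it called lower, *Dnaja4*, *Hsph1*, *Dnaja1*, *Cryab*, *Hspa1a* and *Hspd1* are cytosolic or mitochondrial chaperones or their partners. The others called lower were *Lce1d*, with the smallest adjusted p, *H3c11*, *Nuf2*, *Malat1*, *Gdap10*, *Rarres1*, *Ankrd33b*, *Sprr1a* and *Irs2*. Those called higher were *Hsp90b1*, *Manf*, *Atf5*, *Cdkn1a*, *Apobr*, *Aplnr*, *Pnpla3*, *Rcan1*, *1500011B03Rik*, *Cdh5* and *Cdsn*. Bright genes were chosen by the same 4 arrays. *Apobr*, *Aplnr*, *Cdh5*, *Cdsn* and *1500011B03Rik* had wild type signals of 11.3, 11.7, 11.5, 29.7 and 42.5 and counted as bright through the mutant arrays. The choice thus favoured them as higher genes. *Lce1d*, at 10.97 in the double mutant, counted as bright through the wild type and XBP1 null arrays.

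Of 32 chaperones and foldases of the ER, all bright, 9 were more than 1.5-fold higher in the double mutant (28.1%) and none lower, against 24.1% higher of all genes and 13.7% of bright genes. The median difference was 0.27, against 0.13 over all genes. Under quantile normalisation 8 were higher and 1 lower. *Hspa5*, the Hsp70 of the ER (BiP), read 13371 in wild type and 19811 in double mutant chondrocytes, with 14149.9 in the XBP1 null and 20030.3 in the *Matn3* mutant, and its 3 probe sets were 0.57, 0.58 and 0.74 higher on the log2 scale, the first 2 just under the limit of 1.5-fold and the third past it. *Hsp90b1*, the ER Hsp90, read 8027, 15659, 8555 and 14935, a difference of 0.96 (SE 0.181, adjusted p = 0.00980 in limma's fit of the bright genes and 0.777 in that of all genes). *Manf*, a secreted ER stress protein, had 5125, 10462, 5548 and 10927 and was 2.04-fold higher. For these genes the double mutant was close to the *Matn3* mutant and the XBP1 null close to wild type.

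The disulfide isomerases divided. *Pdia4* had signals of 1389.8, 3232, 1252 and 3509 and was 2.33-fold higher, and *Pdia3* had 5259, 10180.4, 9044 and 11986. *Pdia6* had 5382, 8081, 4754 and 8646 by its brightest probe set, a difference of 0.59, while a dimmer probe set differed by -1.56. *P4hb* and *Pdia5* differed by 0.39 and 0.05, within 1.5-fold. In *Sdf2l1*, a partner of BiP, the signals were 557, 1599.8, 489 and 2608, and in *Hyou1*, a large ER chaperone, 273, 615, 257 and 1022. Both were higher than in wild type in the double mutant but below the *Matn3* mutant.

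Some folding genes were high in the *Matn3* mutant and closer to wild type in the double mutant. *Creld2*, an ER protein with isomerase activity, gave signals of 1645 in wild type and 2009 in double mutant chondrocytes, with 1509 in the XBP1 null and 4667 in the *Matn3* mutant, a difference of 0.29 from wild type in the double mutant. *Ero1b*, an oxidase of the isomerases, had 116, 129, 139 and 235. *Dnajc3*, the BiP co-chaperone p58IPK, had 2109, 2102, 1769 and 3525 by its brightest probe set, but its other 4 probe sets were 0.87, 0.59, 0.54 and 1.18 higher in the double mutant, so its difference from wild type is uncertain. The largest difference of the list was that of *Creld1*, a relative of *Creld2*, with 92.3, 382, 125 and 255, where the double mutant had the highest of 4 values.

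The promoters of 8 of the 28 ER chaperone genes with a RefSeq promoter (28.6%) held the ER stress response element, CCAAT and CCACG with 9 bases between them, on either strand, as did 37 of 27025 genes in all (0.137%). The window ran from 250 bases before the start site to 50 after it. The promoters shown are those of *Hspa5* and *Hsp90b1*, higher in the double mutant by every probe set, of *Creld2*, within 1.5-fold by its only probe set, and of *Dnajc3*, whose probe sets disagreed. The 250 bases before the start site are printed from RefSeq (GRCm38.p6), with the element in capitals.
Hspa5 (chr2:34771840-34772089, plus strand): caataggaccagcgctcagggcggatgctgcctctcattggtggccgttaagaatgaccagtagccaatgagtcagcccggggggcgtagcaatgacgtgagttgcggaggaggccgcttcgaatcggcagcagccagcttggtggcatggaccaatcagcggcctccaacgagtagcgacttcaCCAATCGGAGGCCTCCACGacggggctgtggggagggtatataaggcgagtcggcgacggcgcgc
Hsp90b1 (chr10:86705445-86705694, minus strand): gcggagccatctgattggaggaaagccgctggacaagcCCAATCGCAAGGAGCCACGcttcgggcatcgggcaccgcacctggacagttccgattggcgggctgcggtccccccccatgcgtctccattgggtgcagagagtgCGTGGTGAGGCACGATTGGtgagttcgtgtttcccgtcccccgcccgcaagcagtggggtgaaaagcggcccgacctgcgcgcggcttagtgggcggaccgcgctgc
Creld2 (chr15:88819396-88819645, plus strand): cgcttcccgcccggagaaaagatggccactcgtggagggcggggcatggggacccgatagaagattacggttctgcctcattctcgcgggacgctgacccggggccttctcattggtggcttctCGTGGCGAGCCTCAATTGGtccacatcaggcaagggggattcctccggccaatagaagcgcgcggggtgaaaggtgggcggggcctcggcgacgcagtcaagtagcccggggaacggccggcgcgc
Dnajc3 (chr14:118937682-118937931, plus strand): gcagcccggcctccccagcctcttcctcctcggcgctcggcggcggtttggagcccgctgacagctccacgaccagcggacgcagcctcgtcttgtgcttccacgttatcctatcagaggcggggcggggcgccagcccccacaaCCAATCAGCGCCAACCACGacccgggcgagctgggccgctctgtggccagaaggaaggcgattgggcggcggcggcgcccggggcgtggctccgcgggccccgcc

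*Hsp90b1* held the element at 2 places and the other genes shown at 1. A match describes the letters of the window only. Of the other ER chaperone genes that held it, *Calr* had a difference of 0.77, *Canx* of 0.49 (0.92 in its dimmest probe set), *Pdia6* of 0.59 and *Ero1b* of 0.15.

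Among the genes of ER-associated degradation, 3 of 22 were higher (13.6%) and 1 lower (4.55%), against 24.1% and 12.1% of all genes and 13.7% and 5.21% of bright genes. The median of 0.11 was close to the 0.13 over all genes, so the list as a whole did not stand out. *Derl3*, a channel component, had signals of 18.7, 356, 10.3 and 472, low in both genotypes with wild type *Matn3* and high in both with the mutant form, and its promoter held the ER stress response element. *Sel1l*, the partner of the ubiquitin ligase *Syvn1*, had 900.0, 1922, 1141 and 1587. Of its 5 probe sets, 4 were more than 1.5-fold higher in the double mutant and the dimmest differed by -1.94 on the log2 scale. *Syvn1* itself differed by 0.08 and *Edem1*, which trims misfolded glycoproteins for degradation, by 0.03, with an *Edem1* signal of 1632 in the *Matn3* mutant and 1085 in the double mutant. The dimmer probe set of *Edem1* was 1.17 higher in the double mutant than in wild type. The 36 genes of ER translocation, glycosylation and transport had a median of 0.16, with 2 higher (5.56%, under the share of all genes) and none lower. By the median over probe sets 3 were higher and 3 lower. No member of the 7 reported targets of IRE1-dependent decay differed by 1.5-fold.

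Of the 9 UPR sensors and transducers, all bright, 4 were higher, against 13.7% of bright genes. *Atf6* had signals of 187, 405, 509 and 439, a difference of 1.12 on the log2 scale, and its other 2 probe sets were 0.81 and 0.66 higher. *Mbtps2*, the protease that releases ATF6, had 407, 737, 707 and 777. *Ern1*, which encodes IRE1, had 465, 754, 922 and 972, with weak probe sets in both directions. *Creb3l2*, a transducer of the ATF6 kind that serves secretion in cartilage, had 2976, 4801, 3702 and 3855. For *Atf6*, *Mbtps2* and *Ern1* all 3 mutant arrays were above wild type, the double mutant not the highest. *Eif2ak3*, which encodes PERK, differed by 0.37.

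Targets of the PERK, ATF4 and CHOP branch were largely higher. Of 28 genes, 17 were more than 1.5-fold higher and none lower, with a median of 0.84. Among its 23 very bright genes 12 were higher, against 12.8% of all very bright genes. The list had medians of 0.82 in the *Matn3* mutant and 0.70 in the XBP1 null against the same wild type array. The double mutant had the highest of 4 signals in 15 of the 28 genes.

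The transcription factor *Atf5* gave signals of 448 in wild type and 1819 in double mutant chondrocytes, with 903 in the XBP1 null and 1533 in the *Matn3* mutant. It was 4.06-fold higher in the double mutant (SE 0.430 on the log2 scale, adjusted p = 0.0297 in limma's fit of the bright genes, 0.777 in that of all genes). *Trib3*, a pseudokinase induced by ATF4 and CHOP, had 1099, 2793, 2341 and 2437. *Nupr1*, a stress-induced chromatin protein, had 4865, 9381, 5677 and 8153. *Fgf21*, a secreted hormone of nutrient stress, had 142, 599, 140.4 and 195, so its signal stood apart on the double mutant array alone. The amino acid transporters *Slc7a1*, *Slc7a5* and *Slc6a9* were 2.78-fold, 1.90-fold and 3.98-fold higher. *Slc7a11*, the cystine transporter, had low signals of 32.4, 118, 133 and 188. The enzymes of serine, asparagine and alanine metabolism *Psat1*, *Phgdh*, *Psph*, *Shmt2*, *Asns* and *Gpt2* were between 0.77 and 1.36 higher on the log2 scale.

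The early transcription factors of the branch differed less. *Atf4* had signals of 10502, 13478, 12128 and 12786, a difference of 0.36. *Ddit3*, which encodes the pro-apoptotic factor CHOP, had 7047, 9927, 6726 and 7053, highest in the double mutant but within 1.5-fold, and a second probe set differed by -1.23. *Atf3*, *Ppp1r15a*, *Chac1* and *Ddit4* differed by -0.03, 0.06, 0.03 and 0.09. Each of these 4 genes was lowest in the *Matn3* mutant and close to wild type in the double mutant. Aminoacyl-tRNA synthetases, which load amino acids for translation and are regulated by ATF4, had 7 of 17 genes higher (41.2%, against 24.1% of all genes), none lower, and a median of 0.43. Under quantile normalisation 3 of the 17 were higher. *Gars*, for glycine, had signals of 3121, 5813, 5759 and 5883, and *Aars*, for alanine, 1440.2, 2471, 2128 and 2425. All 3 mutant arrays were above wild type in both.

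The C/EBP-ATF response element TGATGNAA was found on either strand in 8 of 26 promoters of PERK-ATF4-CHOP targets (30.8%) and in 5 of 10 of aminoacyl-tRNA synthetases (50.0%), against 4.51% of all genes. It was held by genes past 1.5-fold, such as *Fgf21* and *Asns*, and by *Atf3* and *Chac1*, which stood within it. The 250 bases before the start site of *Fgf21*, the most different of them, and of *Chac1*, with a difference of 0.03, are shown with the element in capitals.
Fgf21 (chr7:45615491-45615740, minus strand): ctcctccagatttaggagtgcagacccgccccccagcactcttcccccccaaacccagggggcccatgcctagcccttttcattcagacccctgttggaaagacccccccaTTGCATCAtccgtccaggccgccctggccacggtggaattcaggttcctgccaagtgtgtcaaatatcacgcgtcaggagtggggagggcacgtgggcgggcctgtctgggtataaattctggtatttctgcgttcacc
Chac1 (chr2:119350992-119351241, plus strand): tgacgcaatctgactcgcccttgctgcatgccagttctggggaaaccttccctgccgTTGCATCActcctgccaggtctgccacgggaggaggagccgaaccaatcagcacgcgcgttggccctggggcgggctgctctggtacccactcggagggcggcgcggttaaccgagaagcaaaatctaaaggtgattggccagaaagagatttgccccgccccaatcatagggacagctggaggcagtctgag

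The cytosolic heat shock response was largely lower. Of 24 genes, 17 were more than 1.5-fold lower in the double mutant and none higher, with a median of -0.88. Of its 22 very bright genes 15 were lower, against 2.86% of all very bright genes, so the list held 15 of the 130 lower genes of that class. The double mutant had the lowest of 4 signals in 17 of the 24, whereas it had the lowest in 8.20% of the bright genes. Medians were -0.58 in the *Matn3* mutant and -0.23 in the XBP1 null against the same wild type array.

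*Dnaja4*, an Hsp40 co-chaperone, gave signals of 5054 in wild type and 545 in double mutant chondrocytes, with 2306 in the XBP1 null and 1228 in the *Matn3* mutant. It was 9.27-fold lower in the double mutant (difference -3.21, SE 0.388, adjusted p = 1.69e-05 in limma's fit of the bright genes, 0.777 in that of all genes), and its other 2 probe sets differed by -3.27 and -3.89. *Hsph1*, a large Hsp110 that exchanges nucleotide on Hsp70, had 10788, 3016, 9677 and 7695, with the double mutant well below the other 3. *Dnaja1*, another Hsp40, had 10067, 3532, 7643 and 5091, and *Cryab*, the small chaperone alpha B-crystallin, which holds unfolded proteins in solution, 2955, 667, 2060.0 and 1289. In *Dnaja4*, *Dnaja1* and *Cryab* the signal stepped down from wild type over XBP1 null and *Matn3* mutant to double mutant.

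The inducible Hsp70 genes *Hspa1a* and *Hspa1b* have near-identical sequences that probe sets may not keep apart. *Hspa1a* had 13399, 6692, 11324 and 12117. *Hspa1b* had 15413, 12128, 15397 and 16244 by its brightest probe set, within 1.5-fold, and its other 2 probe sets differed by -0.67, past 1.5-fold, and -0.42. *Hspd1* and *Hspe1*, the mitochondrial chaperonin pair Hsp60 and Hsp10, were 2.09-fold and 1.97-fold lower. *Bag3*, an adaptor of selective autophagy, had 4777, 2258, 3312 and 2412, and *Fkbp4*, an Hsp90 partner, 1347, 588, 957 and 615. The constitutive *Hspa8* differed by -0.25 in its brightest probe set and by -0.40, -0.73 and -3.17 in the other 3, so all were lower and 2 passed 1.5-fold. *Hspa4* differed by 0.14 and *Hspb1* by 0.07, within 1.5-fold. *Hspa1l*, mainly a testis Hsp70, had 134, 0.697, 14.04 and 2.29, that of the double mutant under the limit of 1, so no fold is given.

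The heat shock element, GAA, TTC and GAA with 2 bases between neighbours, was searched on both strands, where overlapping matches count separately. It was found in the promoters of 4 of 20 heat shock genes and of 0.662% of all genes. *Hspd1* and *Hspe1* face away from each other and their promoter windows overlap, so 1 stretch of sequence serves for both, which is why that of *Hspd1* is shown.
Hspd1 (chr1:55087933-55088182, minus strand): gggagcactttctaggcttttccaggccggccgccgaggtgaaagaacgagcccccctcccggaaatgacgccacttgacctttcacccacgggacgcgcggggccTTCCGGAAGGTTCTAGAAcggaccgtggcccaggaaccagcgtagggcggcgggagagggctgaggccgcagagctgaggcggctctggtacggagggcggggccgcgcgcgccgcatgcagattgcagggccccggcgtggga

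**Figure D2:**
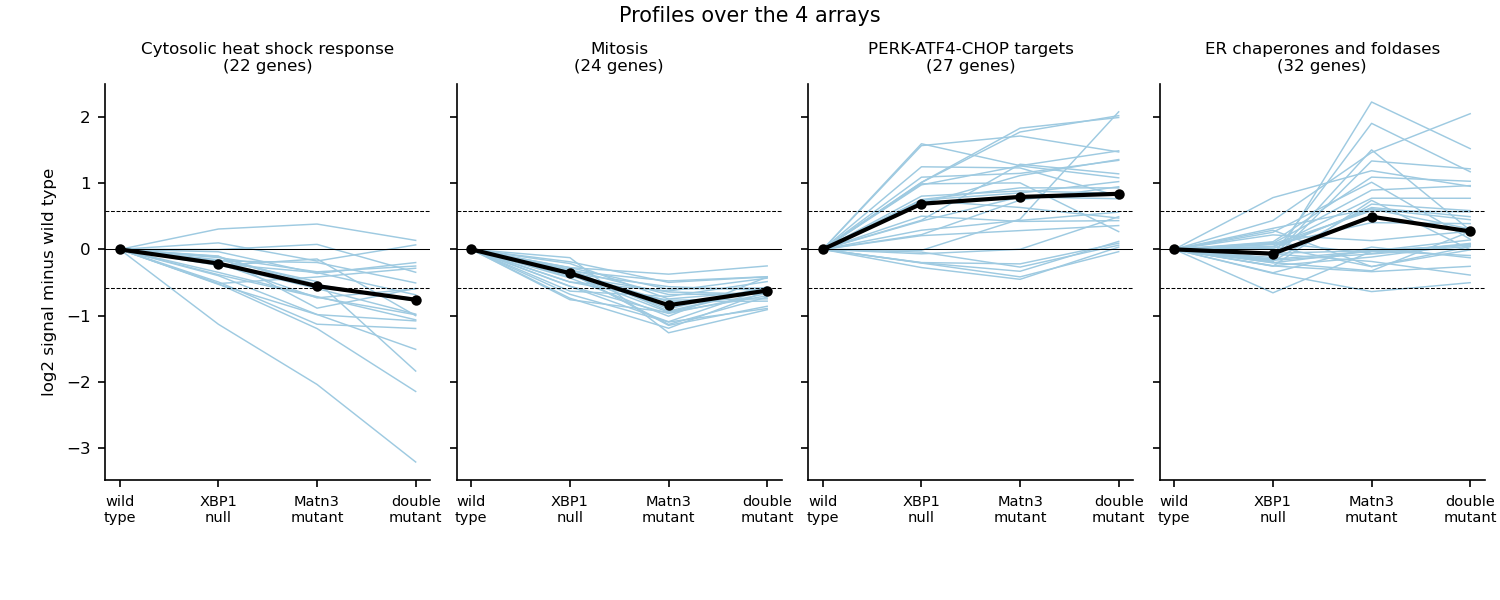
Log2 signal minus that of wild type on each of the 4 arrays for members of 4 lists at or above the median intensity (thin lines, 1 gene each) with the list median (thick line) and dashed lines at 1.5-fold. Lines join arrays for reading only, with 1 array per genotype. The median of the heat shock genes is lowest in the double mutant and that of the mitosis genes lowest in the *Matn3* mutant, and the ER chaperones spread from genes past 1.5-fold to genes near wild type in the double mutant.

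Genes of mitosis were largely lower too. Of 26 genes, 18 were more than 1.5-fold lower and none higher, with a median of -0.63. The quartiles of the list were -0.74 and -0.57, so many members lay close to the limit of 1.5-fold. By the median over probe sets 13 were lower and 1 higher. Of its 24 bright genes 16 were lower by the brightest probe sets, against 5.21% of all bright genes. *Mki67*, the proliferation antigen, gave signals of 1668 in wild type and 969.6 in double mutant chondrocytes, with 1303 in the XBP1 null and 964 in the *Matn3* mutant. *Ccna2*, cyclin A2, had 775, 412, 711 and 324, and *Cenpf*, a kinetochore protein, 479.9, 258, 299.9 and 224. The single mutants had medians of -0.84 (*Matn3* mutant) and -0.36 (XBP1 null), and the double mutant had the lowest of 4 signals in 4 of the 26 genes, so the list was not lowest in the double mutant. Among 27 genes of DNA replication the median was -0.30. Of these, 3 were lower (11.1%, near the 12.1% of all genes) and 2 higher (7.41%, against 24.1%). The lower ones passed 1.5-fold by little. *Mcm5* and *Mcm7* encode parts of the replicative helicase (-0.65 and -0.62) and *Pole* a polymerase (-0.65). The higher ones were *Cdt1* and *Fen1*. *Fen1* differed by -0.21 where probe sets that can cross-hybridise were left out.

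Of 22 p53 targets and apoptosis genes 6 were higher and 2 lower, shares near those of all genes. *Cdkn1a*, the cell cycle inhibitor p21, had signals of 3342, 7764, 6958 and 5286 and was 2.32-fold higher (SE 0.264 on the log2 scale, adjusted p = 0.0302 in limma's fit of the bright genes, 0.777 in that of all genes). *Mcl1*, a survival factor, had 6289, 10845, 8219 and 9013, and *Bcl2l11*, the pro-apoptotic Bim, 854, 1337, 1855 and 1042, its 5 probe sets all more than 1.5-fold higher. Every mutant array was above wild type for these 3. *Pmaip1*, which encodes Noxa, had low signals of 238, 58.4, 68.3 and 12.6, the highest being that of wild type.

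The cartilage matrix was nearly level. Of 23 chondrocyte matrix genes 1 was higher, *Cilp* with 874, 1444, 2350.4 and 622, and 1 lower, *Matn1* with 2622, 1533, 2334 and 1494, and the median was 0.17, close to 0.13 over all genes (under quantile normalisation it was -0.08). *Col2a1*, *Acan*, *Col9a1* and *Comp* differed by 0.41, 0.44, 0.37 and 0.31. *Matn1*, another matrilin of cartilage, was lower on both arrays with mutant *Matn3*. Signals above 10000 are frequent among these genes, and saturation of the scanner was not tested.

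Of 18 regulators of the growth plate 5 were higher (27.8%, near the 24.1% of all genes) and 4 lower. By the median over probe sets, as under quantile normalisation, 2 were higher. *Fgfr3*, which slows chondrocyte proliferation, had signals of 3529, 5911, 3682 and 4868, and *Ptch1*, the Hedgehog receptor and a target of its own pathway, 986, 1497, 1046 and 1005. Both were highest in the double mutant. *Sox6*, a partner of *Sox9* in the cartilage programme, had 758, 1217, 1099 and 965, but its 4 probe sets differed by 0.68, 0.55, 0.04 and -0.66. *Sox9* differed by 0.14. *Mef2c*, a driver of hypertrophy, had 512, 232, 480.3 and 210.1, low in both genotypes with mutant *Matn3*, and 3 of its 5 probe sets were more than 1.5-fold lower. *Gli1*, another Hedgehog target, had 173, 114, 128 and 119.

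Hypertrophic genes went both ways. *Col10a1*, the collagen of hypertrophic chondrocytes, gave signals of 831 in wild type and 223 in double mutant chondrocytes, with 1370.2 in the XBP1 null and 250.1 in the *Matn3* mutant, 3.73-fold lower in the double mutant than in wild type. *Alpl*, the alkaline phosphatase of mineralising cartilage, had 172, 98.8, 304 and 77.5, and *Mmp13*, the late collagenase, 469, 349.7, 515 and 687. *Vegfa*, which draws vessels into cartilage, had 1088, 2636, 1579 and 2295 and was 2.42-fold higher, with a second probe set at 0.02. *Ank*, a pyrophosphate exporter, had 1668, 2855, 5323 and 3646. *Col10a1* and *Alpl* were low on both arrays with mutant *Matn3* and *Vegfa* high on both. Of 11 osteoblast and osteocyte genes 1 was higher and 4 lower, against 12.1% lower of all genes, but of the 5 bright ones 1 was lower. Among the lower genes was *Tnn* with 319.5, 100.2, 643 and 51.02. *Col1a1*, the main collagen of bone and perichondrium, had 4591, 4969.6, 7001 and 2398 and differed by 0.11.

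**Figure D3:**
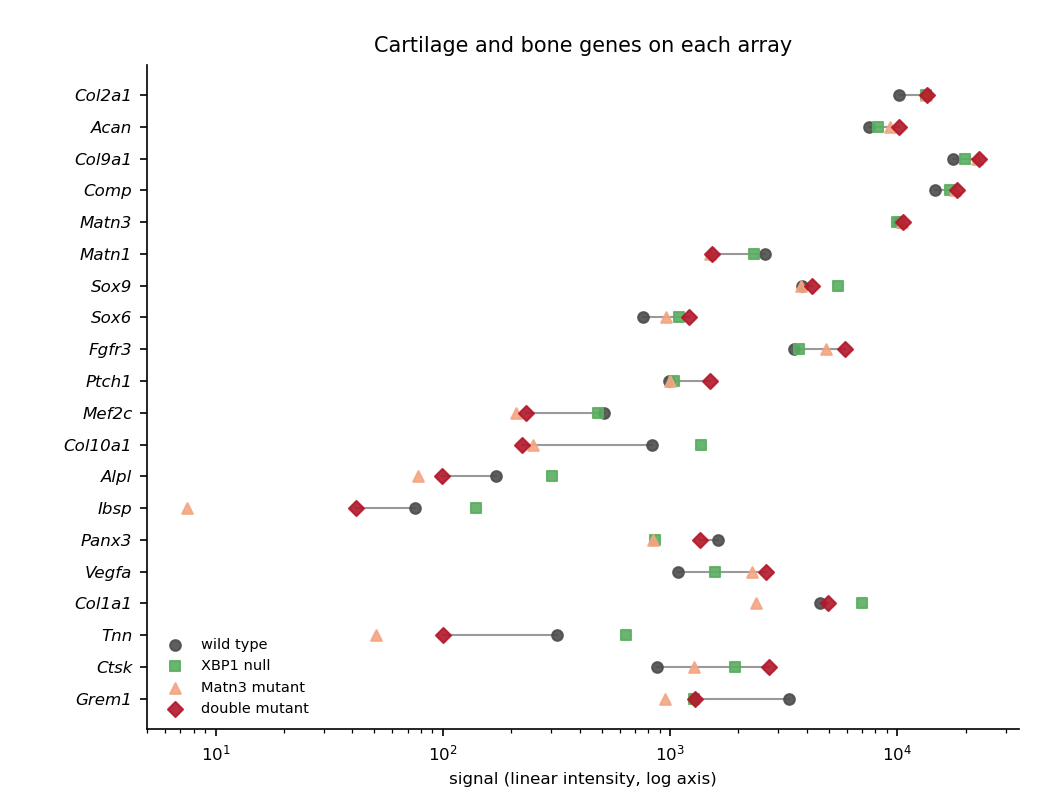
Signal of 20 genes of cartilage and bone on each array (log axis), with a grey line from wild type to double mutant. *Col10a1*, *Mef2c*, *Tnn* and *Grem1* are lower in the double mutant, *Vegfa*, *Ctsk* and *Fgfr3* higher, and the major matrix genes nearly level.

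Among 21 matrix proteases and inhibitors 5 were higher (23.8%, near the 24.1% of all genes) and 1 lower. *Ctsk*, the collagenolytic cathepsin, had signals of 876, 2715, 1929.8 and 1275 and was 3.10-fold higher, the highest value being that of the double mutant. *Adamts4*, an aggrecanase, had 160.0, 335, 452 and 248, but a dimmer probe set differed by -0.95 between double mutant and wild type. The stromelysin *Mmp3* had 1783, 1679, 2688 and 4696. The related *Mmp10* had 210.0, 125, 324 and 400.3, and both were highest in the *Matn3* mutant and lowest in the double mutant. Of 10 genes of the insulin-like growth factor axis 3 were higher and 1 lower, again near the shares of all genes. *Igf1* had 781, 1267, 1825 and 349.7, 1.62-fold higher in the double mutant, though its 2 dimmest probe sets differed by 0.18 and 0.09. *Igf2r*, which removes IGF2, was lower by its brightest probe set (3403, 1729.6, 2406 and 1932) but differed by 0.03 in the second. *Irs2*, an adaptor of the insulin receptor and no member of that list, had 430.0, 68.04, 221 and 90.8.

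Of 31 genes of NF-kB and inflammation 7 were higher (22.6%, near the 24.1% of all genes) and 11 lower, against 12.1% of all genes. *Cxcl10*, an interferon-induced chemokine, had signals of 12053, 5048, 2644 and 4273, and the transcription factor *Irf1* 6725, 3871, 2872 and 3384. The chemokine *Ccl2* had 1441, 599, 1858 and 604. The related *Ccl7* had 461, 138, 243 and 169. *Icam1*, an adhesion molecule, had 2059, 3792, 2156 and 3128, and *Ptges*, an enzyme of prostaglandin E synthesis, 384, 738, 806 and 1315, with a dimmer probe set at 0.25. For *Cxcl10* and *Irf1* wild type was the highest of 4 arrays, and for *Icam1* and *Ptges* it was the lowest. The median of the list was 0.17 by the brightest probe sets and -0.19 by the median over probe sets. Genes of the immediate early response had signals up to 18836 (*Egr1* in double mutant) and were nearly level by their brightest probe sets. Of 25, 2 were higher, *Egr3* and *Fosl2*, the second of which differed by -0.25 in its dimmer probe set. By the median over probe sets 1 was higher and 3 lower. The brightest probe set of *Ccn1* differed by -0.29, but 2 dimmer ones by -2.29 and -2.40.

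The remaining cellular processes showed few differences past 1.5-fold by the brightest probe sets. None of 31 proteasome genes and none of 18 ribosomal protein genes passed it, with medians of 0.08 and 0.30, which were -0.057 and 0.049 under quantile normalisation. Splicing and nuclear speckle genes had 1 of 27 higher and none lower, but 2 higher and 6 lower by the median over probe sets. Autophagy had 2 of 18 higher, and cholesterol and fatty acid synthesis 1 of 18 higher and 1 lower. Glycolysis and the hypoxia response had 1 of 17 higher and 2 lower, and collagen modifying enzymes 1 of 18 higher.

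**Figure D4:**
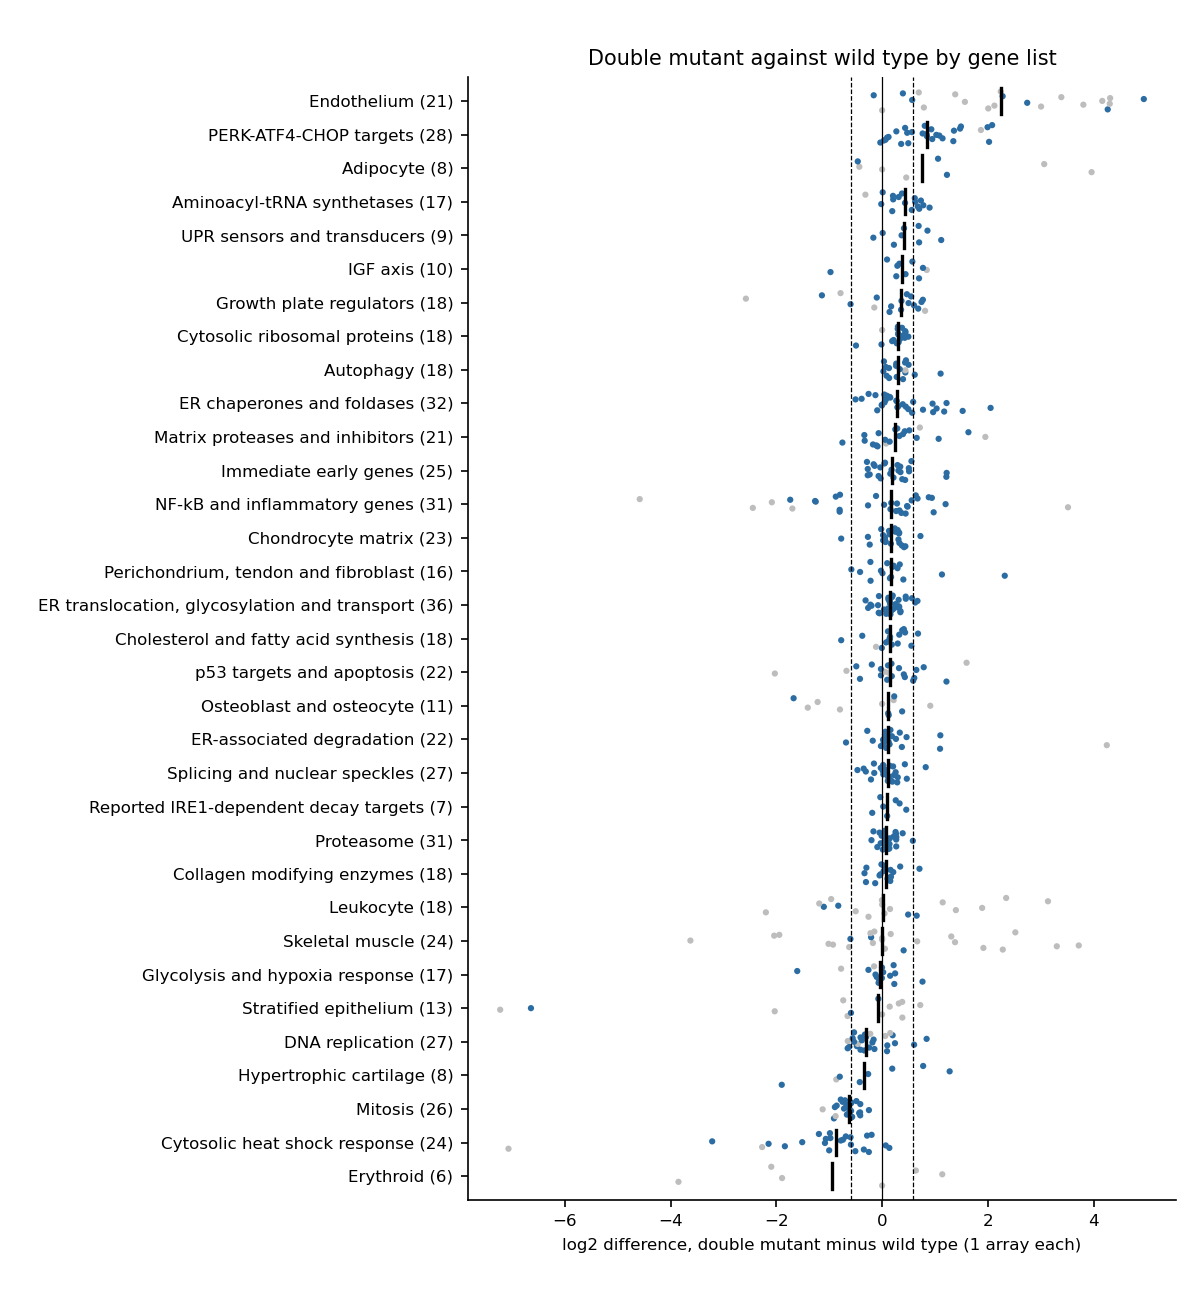
Log2 difference between double mutant and wild type for the members of 33 gene lists (number measured in parentheses), ordered by median (black bar), with dashed lines at 1.5-fold. Blue points are genes at or above the median intensity and grey points dimmer genes. Heat shock and mitosis genes lie mostly left of zero, PERK-ATF4-CHOP targets and endothelial genes right of it.

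The bright genes with the largest differences included several that mark other cells than chondrocytes. Endothelial markers were higher in 17 of 21 genes and lower in none, with a median of 2.24, against 24.1% higher of all genes. Of the 7 bright ones 4 were higher, *Aplnr*, *Cdh5*, *Esam* and *Cldn5*. Their wild type signals were 11.7, 11.5, 23.8 and 21.3, and they counted as bright through the mutant arrays. The choice of bright genes thus favoured higher ones here, so this count cannot be set against the share of bright genes. *Aplnr*, the apelin receptor, gave signals of 11.7 in wild type and 360.3 in double mutant chondrocytes, with 1199 in the XBP1 null and 143 in the *Matn3* mutant, and *Cdh5*, the endothelial cadherin, 11.5, 221, 838 and 146. *Pecam1*, a defining endothelial marker, had 0.136, 0.534, 87.7 and 0.329 and was under the limit of 1 in both genotypes compared. The summed signal of the 21 genes was 1162, 2919, 10000.3 and 1896 in the same order, so the double mutant lay between wild type and XBP1 null. Of all genes called by the restricted fit, *Aplnr* and *Cdh5* departed most from additive effects. The part of endothelial cells in the differences of other genes was not tested.

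**Figure D5:**
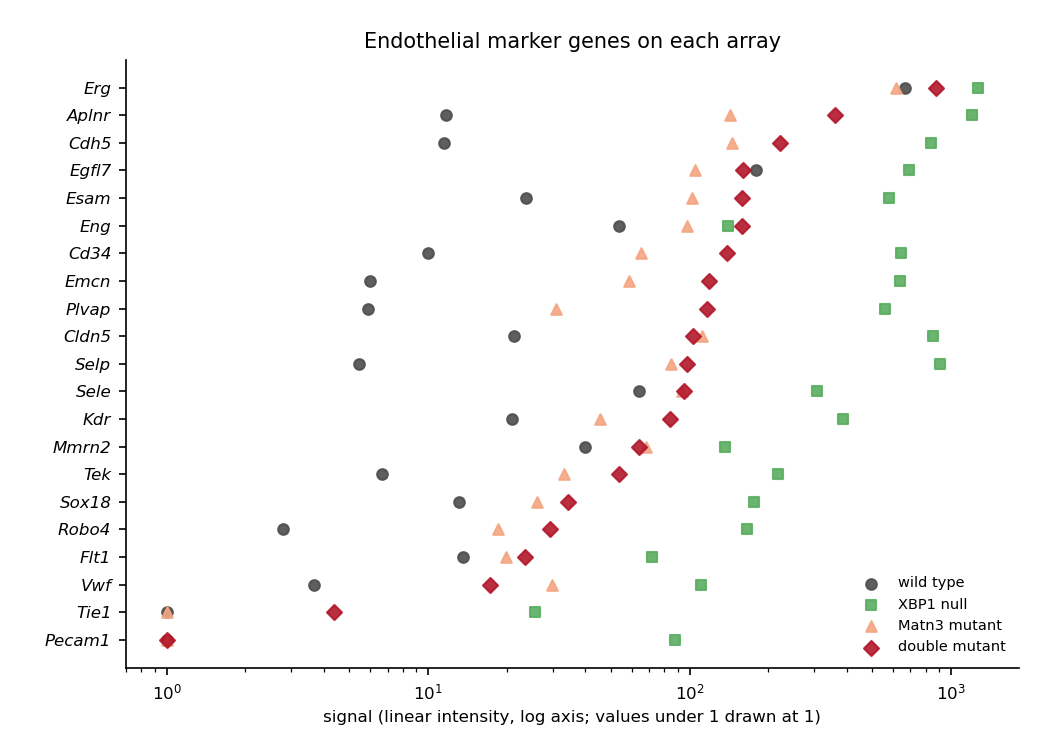
Signal of 21 endothelial marker genes on each array (log axis, values under 1 drawn at 1), ordered by the double mutant. For 18 of the 21 genes the double mutant lies between wild type and XBP1 null.

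Other markers were mixed. Against 24.1% higher and 12.1% lower of all genes, leukocyte genes had 6 of 18 higher and 5 lower, and adipocyte genes 4 of 8 higher, with *Fabp4*, a fatty acid carrier of adipocytes and endothelium, at 493, 1154, 4285 and 858, though its 2 dimmest probe sets differed by -1.48 and -2.08. Perichondrium, tendon and fibroblast genes had 2 of 16 higher and a median of 0.16, muscle genes 8 of 24 higher and 7 lower, nearly all of them dim, and erythroid genes 2 of 6 higher and 3 lower at a summed signal under 300. Stratified epithelium had 1 of 13 higher, *Dsc3* at 0.72, and 6 lower, with a median of -0.07. Only 3 of the 13 were bright, and 2 of these were lower. *Lce1d*, which encodes a cornified envelope protein of skin and was the most strongly lower bright gene, had 1094, 10.97, 962 and 24.95, high on both arrays with wild type *Matn3*. Its probe set is of a kind that can cross-hybridise. *Sprr1a*, another gene of that envelope, had 2575, 685, 2216 and 701. The part of epithelial cells in these differences was not tested.

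Of the other genes with the largest differences, *Apobr*, a lipoprotein receptor, had signals of 11.3, 322, 223 and 371 and *Slc38a1*, a glutamine transporter, 49.2, 344, 435 and 383. The wild type array was low and the 3 mutant arrays were alike in both. Among very bright genes *Gch1*, the first enzyme of tetrahydrobiopterin synthesis, had 319, 1234, 1078 and 1021, and *Ptpre*, a tyrosine phosphatase, 231, 762, 1065 and 1118, with the same pattern. *Serpina3n*, a protease inhibitor of the acute phase, had 1503, 4794, 821 and 3257, high with mutant *Matn3* and highest in the double mutant. *Grem1*, an antagonist of bone morphogenetic proteins, had 3354, 1292, 1274 and 952, and the imprinted noncoding RNA *Rian* 2936, 1140.5, 1310.4 and 1882, with another probe set at -0.12. *Malat1*, a nuclear noncoding RNA, had 12262, 6014, 8869 and 8189 and was called lower in the restricted fit. Probe sets disagreed for *Hivep3*, which differed by 1.68 in the brightest and -1.96 in the third, and for *Mdfi*, which differed by -2.13 in the brightest and 3.11 in the other. They also disagreed for *1500011B03Rik*, called higher in the restricted fit, with 2.85 in the brightest and -1.10 in the other. *Ankrd33b*, called lower there, differed by -2.33 in the brightest and 1.81 in the dimmest, which read 1.88 in wild type and 6.58 in the double mutant.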

How the data were processed

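RNA of rib chondrocytes of 4 genotypes was measured on a whole-genome 3' expression array (Affymetrix Mouse430_2), 1 array per genotype. The deposited values are linear intensities of 45037 probe sets, which the authors had already summarised. Summarisation and normalisation were not given in the sources used here. Published methods name Microarray Suite 5 (quality of control hybridisations) and PPLR (differential expression past 1.5-fold). PPLR needs errors of single probes and was not applied here, detection calls were not analysed here, and the number of arrays limits the precision.

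Values under 1 were set to 1 and log2 was taken, with no further scaling. Probe sets that name 1 gene in GEO's platform annotation (34945) were kept, those naming several (932) or none (9160) were left out, and a gene was read by its brightest probe set, judged by mean log2 over all 4 arrays. Genes past 1.5-fold were counted over all genes, over the bright genes (mean at or above the median) and over the very bright genes (top 25%). An additive model of both mutations was fitted in limma 3.58.1 (R 4.3.3) with eBayes, a trend on intensity and Benjamini-Hochberg adjustment at 0.05. It was checked on simulated data drawn from its own variance model. Simulated data with another noise model gave more false calls than the nominal share, so the calls of the restricted fit depend on that model.

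The 34 lists (26 of pathways and 8 of markers) held 704 entries, of which 654 were measured. The members and lists were chosen with earlier results of these data known. Names were drawn from *Xbp1*, *Matn3* and the genes called by the fit. They were also drawn from the 10 bright and the 10 very bright genes with the largest difference in each direction. For each list, its first 2 members and up to 4 bright ones with the largest difference were eligible. Not every gene that met this rule is named. Other genes were named after their values were seen, as members of these lists. Promoters are those of RefSeq (GRCm38.p6). The alternatives were median centring, quantile normalisation, bright genes only, a floor at the 25th percentile, the median over probe sets, and leaving out probe sets with the suffix _s_at or _x_at, with a fit without trend. Python 3.11.15 with pandas 2.3.3, numpy 2.4.6 and matplotlib 3.10.9 made the tables and plots.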

Additional observations from a re-analysis of the deposited data

How the results depend on the processing

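Of 34 list medians, 30 moved by less than the median standard error of their members in each alternative that gave a value. Of the others, that of the growth plate regulators was 0.36, and 0.065 by the median over probe sets, and those of the chondrocyte matrix and the ribosomal proteins were -0.075 and 0.049 under quantile normalisation. The count of genes over 1.5-fold higher was 4392, and between 3573 and 4394 under the alternatives that kept all genes, and that of lower genes 2209, and between 1557 and 2717. Among bright genes, at or above the median intensity, the counts were 1246 and 474. Higher genes made up 66.5% of those past 1.5-fold, and from 60.6% (median over probe sets) to 72.4% (bright genes). The additive fit called 0 genes in 5 of 6 settings and 26 among bright genes, where the better determined spread and the smaller number of genes differ together. No paired analysis was possible because each genotype had 1 array. Leaving out an array was not run, since it would leave no comparison or no residual degree of freedom. Some differences changed sign. The median of the sex chromosome genes was -0.015 among bright genes and -0.26 by the median over probe sets. By that median *Adamts9* was -0.13, *Bmpr1b* -0.11, *Edem2* 1.11, *Fabp4* -0.036, *Hivep3* -1.10, *Krt14* 2.41, *Lss* 0.62, *Mdfi* 0.49, *Mdm2* -0.22 and *Rbm39* -0.12. Without the suffixed probe sets *Fen1* was -0.21, *Krt14* 2.41 and *Lss* 0.62. The cause was not tested. No detection calls were used, so low signals cannot be told from background.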
